A study of Mus musculus with 12 samples.

Results

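The comparison described here is that of DNCB-treated dorsal skin that received mesenchymal stem cells (MSCs) under the skin, the scMSC group, with DNCB-treated dorsal skin that received no MSCs, the DNCB group. Each group was 3 libraries of total RNA, so 6 of the 12 libraries of the series were compared, and 21890 of the 36400 genes in the deposited table were tested, namely those whose FPKM averaged 0.1 or more across all 12. The mice were female BALB/c mice, 6 weeks old when the study began. DNCB (1-chloro-2,4-dinitrobenzene) is a hapten that sensitizes the skin and produces eczema-like lesions. All mice were shaved and depilated with cream before the start and shaved once more on day 24. Both groups were sensitized with 1% DNCB, challenged with 0.5% DNCB on the back and right ear several times, and sampled on day 30. The scMSC group also received 2000000 human umbilical cord MSCs in 100 µL of culture solution beside the lesion, 4 times from day 13 to day 25. The control group (3 libraries) received the acetone and olive oil vehicle without DNCB, and the scivMSC group (3 libraries) received DNCB and the same number of MSCs, given as 50 µL subcutaneously plus 50 µL through the tail vein. An injection of culture solution without cells is not among the groups, so what the cells and what the injections contributed cannot be told apart. The model is a chemical one on shaved skin, which limits it as a picture of atopic dermatitis.

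In dermatitis, keratinocytes under attack leave their normal programme of differentiation and make stress keratins, small proline-rich proteins and antimicrobial peptides. They also release chemokines that draw neutrophils and monocytes out of the blood, and these cells in turn make IL-1β, TNF and proteases. Dorsal mouse skin further holds hair follicles, which pass through phases of growth (anagen) and rest (telogen), sebaceous glands, fat and a thin muscle layer, so a bulk RNA sample of skin reports the state of all of them. A lower level of a transcript in such a sample can come from fewer cells of a type or from less RNA per cell, and these cannot be told apart.

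The libraries held 63877153 to 75134001 estimated counts each. In DNCB skin they held 67995114 to 75134001 and in scMSC skin 72336972 to 74943773, so depth differed little between the groups compared. Mitochondrial transcripts took 4.0% to 5.33% of counts in DNCB skin and 4.83% to 6.26% in scMSC skin. Across genes, log-scale profiles correlated at 0.9653 to 0.9671 within the DNCB group, 0.9568 to 0.9583 within the scMSC group and 0.9029 to 0.9355 between the groups. The first principal component of the 6 libraries held 53.2% of the variance and separated the groups, and the second, with 13.8%, separated scMSC replicate 2 from scMSC replicate 3. The defining skin keratins and collagens were abundant in all 6 libraries: Krt5 was between 759 and 3259 FPKM and Col3a1 between 74.3 and 754 FPKM.

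Calls required an adjusted p (Benjamini-Hochberg, edgeR's quasi-likelihood test) under 0.05 together with an absolute log2 difference over 1. All differences below are scMSC minus DNCB on the log2 scale, with a standard error (SE), and all levels are FPKM of single libraries in the order of replicates 1, 2 and 3. Of the 21890 genes, 1861 (8.5%) were called. In scMSC skin 1021 genes (4.66%) were higher and 840 (3.84%) lower, and the 6 libraries separated by group without overlap in FPKM for 33.1% of the genes tested. These shares are the background for every count of called or non-overlapping genes below. The called genes were mostly protein-coding, 910 of the 1021 higher and 763 of the 840 lower. The 2 directions differed in where the scMSC level lay against vehicle-treated control skin. Of the 840 genes called lower, 83.8% had a mean scMSC level within 2-fold of the control mean. Of the 1021 called higher, 43.1% did and 53.0% lay more than 2-fold above it, against 80.8% within 2-fold and 11.1% above among all genes tested.

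**Figure D1:**
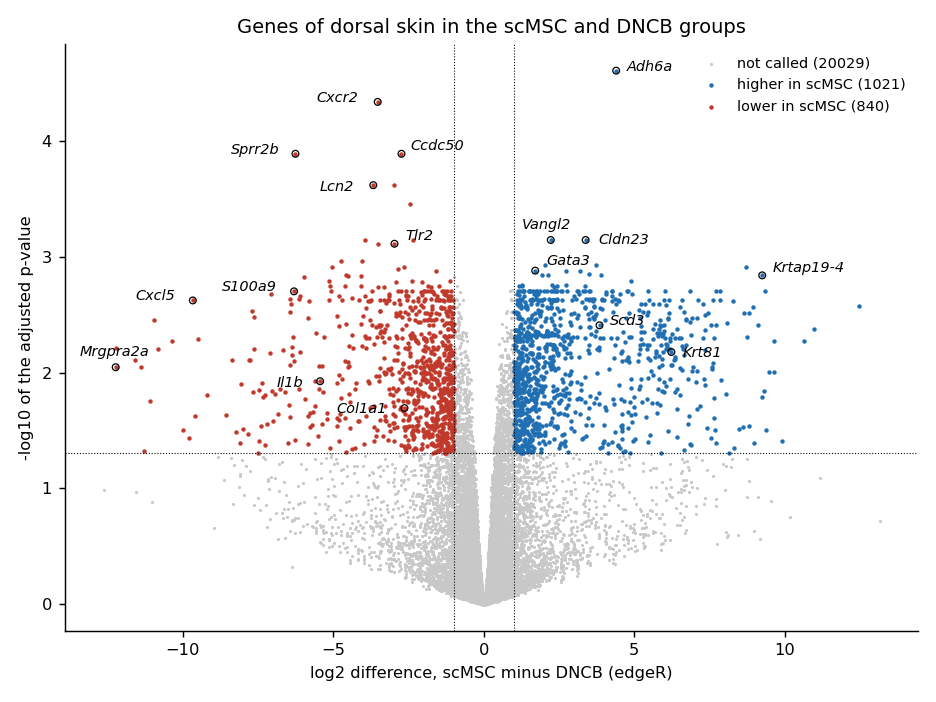
Each point is 1 of the 21890 genes tested, with the log2 difference of scMSC minus DNCB skin on the horizontal axis and the -log10 of the edgeR adjusted p on the vertical axis. Dotted lines mark the limits of a call, blue and red points are the 1021 genes called higher and the 840 called lower in scMSC skin, and ringed genes are described in the text.

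Neutrophil transcripts were lower in scMSC skin than in DNCB skin across the list. Of 18 neutrophil genes, 17 were called lower (94.4%, against 3.84% of all genes) with a median log2 difference of -5.85, and 0 were higher. The median of all genes tested was 0.02. The calls numbered 14 to 15 when 1 of the 6 libraries was left out. S100a9, a subunit of the calcium-binding protein calprotectin that neutrophils carry in their cytosol, was at 2089, 2236 and 1573 FPKM in DNCB skin and 25.3, 40.8 and 5.84 in scMSC skin. Its partner S100a8 was at 905, 1053 and 788 FPKM against 12.5, 21.9 and 7.56. For both genes the lowest DNCB library lay far above the highest scMSC library. S100a9 had a log2 difference -6.31 ± 0.82 (SE), adjusted p = 0.00199 and S100a8 a log2 difference -5.99 ± 0.67 (SE), adjusted p = 0.0015. The chemokine receptor Cxcr2, which guides neutrophils along CXC chemokine gradients, had the smallest p-value of all genes called lower. It was at 11, 10.3 and 12.7 FPKM in DNCB skin and 0.919, 1.0 and 0.964 in scMSC skin (log2 difference -3.53 ± 0.21 (SE), adjusted p = 4.6e-05), with control skin at 1.49, 2.14 and 2.2. The related receptor Cxcr1 was at 1.33, 1.16 and 1.87 FPKM in DNCB skin and at 0 in all scMSC libraries, a difference of at least 14.5-fold against a floor of 3 fragments per library. The surface marker Ly6g, at 2.67, 4.93 and 1.83 FPKM in DNCB skin, and Cd177, at 2.39, 1.6 and 1.39 FPKM, were likewise at 0 in all 3 scMSC libraries, which is at least 19.8-fold and 33.9-fold lower. The collagenase Mmp8 of neutrophil granules was at 6.93, 6.94 and 8.0 FPKM against 0, 0.163 and 0 (log2 difference -6.93 ± 1.56 (SE), adjusted p = 0.0153). The receptors for formylated bacterial peptides fell as well, Fpr1 from 13.5, 16 and 7.66 FPKM to 0.173, 0.176 and 0 (log2 difference -6.68 ± 1.24 (SE), adjusted p = 0.00637) and Fpr2 from 19.7, 18.7 and 13.6 FPKM to 0.299, 0.26 and 0 (log2 difference -6.46 ± 0.89 (SE), adjusted p = 0.00231). The 1 neutrophil gene not called was the lectin receptor Clec4e, at 9.89, 9.7 and 6.45 FPKM against 0.329, 0.402 and 0.0142, whose adjusted p was 0.0502. Summed over the 18 genes, the list reached 3493, 3755 and 2727 FPKM in DNCB skin, 60.2, 83.3 and 26.2 in scMSC skin and 145, 139 and 241 in control skin. Most of the DNCB sum came from S100a9 and S100a8, so it follows those genes rather than the list as a whole. Which cells made this RNA was not tested, and the sum is not a measure of neutrophil number.

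The chemokines that recruit these cells were lower too, while most other chemokines were not called. Of 28 chemokine ligands tested, 9 were called lower and 2 higher (39.3% called, against 8.5% of all genes), and the median log2 difference was -0.74. Cxcl5, a ligand of Cxcr2 that epithelial cells make, was at 14.6, 6.26 and 24.7 FPKM in DNCB skin and 0.0482, 0 and 0 in scMSC skin, where it rested on at most 3 fragments per library. The ratio of its summed counts was 846 with an exact 95% counting interval of 234 to 6989. Cxcl2 was at 277, 183 and 158 FPKM against 1.98, 4.52 and 0.206 (log2 difference -6.46 ± 1.6 (SE), adjusted p = 0.0242). Cxcl3 was at 21.3, 12.6 and 12.1 against 0.0516, 0.28 and 0 (log2 difference -7.02 ± 1.77 (SE), adjusted p = 0.026). Cxcl1 was at 13.8, 3.79 and 8.93 against 0.435, 0.15 and 0.491 (log2 difference -4.6 ± 0.89 (SE), adjusted p = 0.00799). None of these 4 ligands overlapped between the groups, and 16 of the 28 tested did not, against 33.1% of all genes. The macrophage inflammatory proteins Ccl3 and Ccl4, which attract monocytes, showed the same order. Ccl4 was at 170.3, 92.8 and 89.8 FPKM in DNCB skin and 0.928, 2.59 and 0.322 in scMSC skin (log2 difference -6.46 ± 0.99 (SE), adjusted p = 0.00299). Ccl3 was at 136, 98.1 and 82.5 FPKM against 1.11, 2.59 and 0.107 (log2 difference -6.31 ± 1.23 (SE), adjusted p = 0.008). The chemokine receptor Ccr1 was at 23.1, 19.7 and 20.6 FPKM against 1.09, 1.02 and 0.505 (log2 difference -4.57 ± 0.5 (SE), adjusted p = 0.00145), and 5 of 16 chemokine receptors were called lower (3 with genes of at least 1 FPKM only). Ccl19, a ligand that draws dendritic cells and T cells, was at 0.549, 0.393 and 0.535 FPKM in DNCB skin and 0 in every scMSC library (at least 2.94-fold lower). The 2 ligands called higher were Xcl1, a product of T and natural killer cells, and Ccl27a, the keratinocyte ligand that attracts skin-homing T cells. Xcl1 was at 0 in every DNCB library and at 0.526, 0.433 and 0.0881 FPKM in scMSC skin (at least 1.27-fold higher), and Ccl27a was at 1.87, 1.5 and 1.39 FPKM against 4.93, 5.97 and 2.96 (log2 difference 1.57 ± 0.36 (SE), adjusted p = 0.0168). The receptor Ccr4 of skin-homing T cells was also higher, at 0.0436, 0.0296 and 0.0848 FPKM in DNCB skin and 0.536, 0.368 and 0.559 in scMSC skin (log2 difference 3.16 ± 0.42 (SE), adjusted p = 0.00209), below the 1.86, 1.64 and 3.0 of control skin. The call of Cxcl2 was lost without DNCB replicates 1 or 2 or scMSC replicates 1, 2 or 3 (adjusted p 0.0506 to 0.071), that of Cxcl3 without DNCB replicates 1, 2 or 3 or scMSC replicates 1 or 3 (adjusted p 0.0538 to 0.0735), that of Ccl27a without DNCB replicates 2 or 3 or scMSC replicate 2 (adjusted p 0.0643 to 0.0663) and that of Xcl1 without DNCB replicates 1, 2 or 3 or scMSC replicates 1, 2 or 3 (adjusted p 0.0505 to 0.105).

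**Figure D2:**
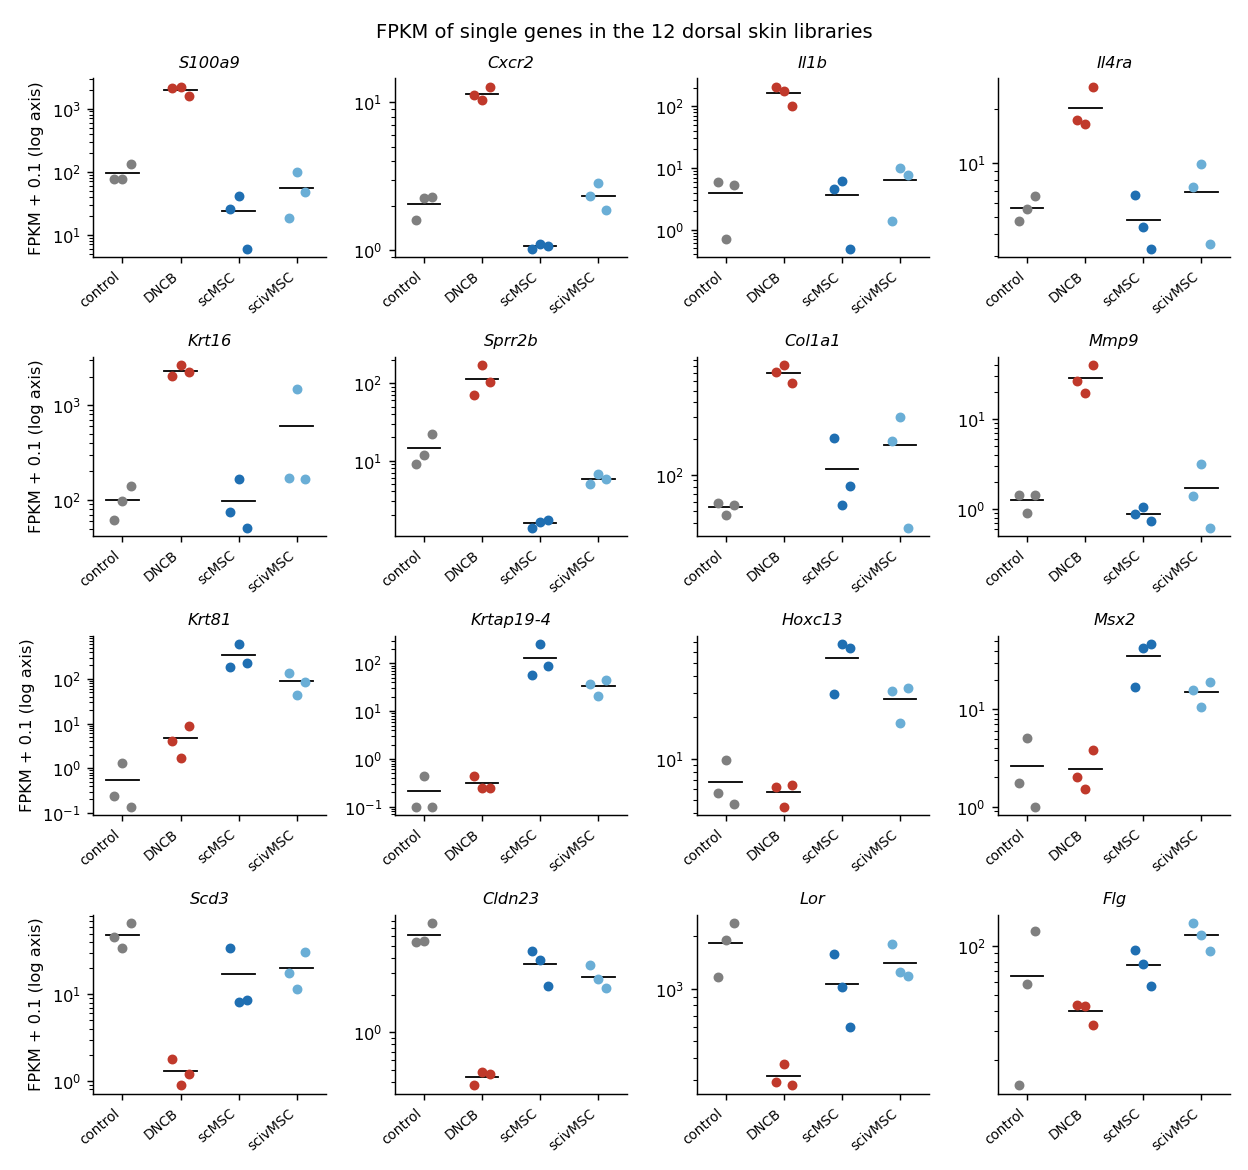
FPKM + 0.1 of 16 genes in each of the 12 libraries, on log axes, with 1 point per library and a bar at the group mean. The first 8 genes are lower in the 3 scMSC libraries than in the 3 DNCB libraries without overlap, the next 7 are higher without overlap and were called, and Flg was not called.

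IL-1β and the genes around it fell with the neutrophil genes. Interleukin-1β is made as a precursor that the NLRP3 inflammasome and caspase-1 cut into its active form. Il1b was at 208, 179 and 99.8 FPKM in DNCB skin and 4.39, 6.04 and 0.388 in scMSC skin (log2 difference -5.44 ± 1.16 (SE), adjusted p = 0.0119), and control skin held 5.8, 0.608 and 5.25. The inflammasome sensor Nlrp3 was at 14.4, 10.2 and 8.02 FPKM against 0.451, 0.615 and 0.0467 (log2 difference -4.82 ± 1.0 (SE), adjusted p = 0.0105). The epithelial alarmin Il33, which signals to mast cells and type 2 lymphocytes, was at 36.4, 28.5 and 41.9 against 6.07, 1.65 and 1.43 (log2 difference -3.54 ± 0.62 (SE), adjusted p = 0.00495). None of the 3 genes overlapped between the groups, and 16 of the 20 in this list did not, against 33.1% of all genes. Of 20 genes of the IL-1 family and inflammasome, 8 were called lower and 0 higher, with a median log2 difference of -1.14. The other 5 were the decoy receptor Il1r2, the accessory receptor chain Il1rap, the adaptor Pycard, the caspase Casp4 and Il1f9, which encodes IL-36γ. Il1f9 was at 54.4, 73.3 and 48.6 FPKM in DNCB skin and 31.7, 20.3 and 15.5 in scMSC skin (log2 difference -1.37 ± 0.29 (SE), adjusted p = 0.0115). The call of Il1r2 was lost without DNCB replicates 1 or 2 or scMSC replicates 2 or 3 (adjusted p 0.0625 to 0.102), and that of Casp4 without DNCB replicates 1, 2 or 3 (adjusted p 0.0525 to 0.0592) and without scMSC replicate 3 (log2 difference -0.92). The list was not uniform: Il1a, the other IL-1 ligand, was at 20.4, 13 and 13.9 FPKM against 6.39, 7.69 and 2.76 and was not called (adjusted p = 0.0656), and neither was Il18 at 14.1, 11.9 and 9.94 FPKM against 27.7, 15.3 and 8.31 (adjusted p = 0.451).

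Among 17 cytokine ligands outside the IL-1 family, 9 were called lower and 0 higher, with a median log2 difference of -3.85, or -1.29 with genes at 0 in scMSC skin set to their bound. Tnf was at 52.5, 24.8 and 29.1 FPKM in DNCB skin and 0.949, 2.73 and 1.21 in scMSC skin (log2 difference -4.38 ± 0.75 (SE), adjusted p = 0.00477). Oncostatin M (Osm), a cytokine of the gp130 family, was at 13.9, 8.33 and 6.03 FPKM against 0.391, 0.318 and 0.0644 (log2 difference -5.14 ± 0.73 (SE), adjusted p = 0.00239). Csf3, the growth factor that drives neutrophil production, was at 14, 6.4 and 7.53 FPKM against 0.189, 0.109 and 0 (log2 difference -6.45 ± 1.27 (SE), adjusted p = 0.00864). No scMSC library reached the lowest DNCB library for any of the 3. The IL-20 family cytokines Il19 and Il24, which act on keratinocytes, were at 4.66, 1.96 and 4.89 FPKM and 3.76, 2.35 and 2.83 FPKM in DNCB skin and at 0 in all scMSC libraries, at least 29.4-fold and 27.6-fold lower. Il20 of the same family went the other way and was not called. It had 16, 10 and 0 estimated counts in DNCB skin and 89, 58 and 127 in scMSC skin. With DESeq2 or limma on log2(FPKM + 0.1), 1 member of the list was called higher. Il6 was at 1.28, 0.322 and 0.856 FPKM in DNCB skin and 0, 0 and 0.0385 in scMSC skin, a ratio of summed counts of 58.8 with an exact 95% counting interval of 15.9 to 491. The count of 9 was 4 without DNCB replicates 1 or 3 or scMSC replicate 2 and 5 without scMSC replicate 3. The call of Il6 was lost without DNCB replicates 1 or 3 or scMSC replicates 1 or 2 (adjusted p 0.0528 to 0.0785) and that of Il24 without DNCB replicates 1, 2 or 3 or scMSC replicates 1, 2 or 3 (adjusted p 0.0876 to 0.11).

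Of 20 receptors of the type 2, IL-17, IL-20 and gp130 families, 3 were called lower and 1 higher. The 3 are chains of the receptors for IL-4 and its type 2 relatives, the cytokines of allergic skin disease. Il4ra was at 17.3, 16.4 and 26.7 FPKM in DNCB skin and 6.51, 4.3 and 3.21 in scMSC skin (log2 difference -2.09 ± 0.36 (SE), adjusted p = 0.00461), against 4.65, 5.42 and 6.44 in control skin. Il13ra1, the second chain of the type 2 receptor, was at 40.2, 40.3 and 41.2 FPKM against 21.8, 14.7 and 11.4 (log2 difference -1.33 ± 0.25 (SE), adjusted p = 0.00705). The common γ chain Il2rg was at 9.07, 7.7 and 9.52 against 2.97, 1.5 and 1.89 (log2 difference -2.03 ± 0.3 (SE), adjusted p = 0.00272). The groups did not overlap for any of them. The receptor called higher, Il20ra, was at 1.02, 1.99 and 1.37 FPKM against 7.4, 2.75 and 3.11 (log2 difference 1.6 ± 0.42 (SE), adjusted p = 0.0313), and its call was lost without DNCB replicates 1 or 3 or scMSC replicate 1 (adjusted p 0.0979 to 0.116). Downstream of these receptors, 2 of 20 JAK, STAT and SOCS genes were called (10%, near the 8.5% of all genes), both lower. Both are feedback inhibitors induced by cytokines. Socs3 was at 55.5, 29.4 and 43.1 FPKM in DNCB skin and 10.7, 6.12 and 5.22 in scMSC skin (log2 difference -2.52 ± 0.34 (SE), adjusted p = 0.0022). Socs1 was at 2.75, 1.72 and 2.27 against 1.06, 0.805 and 0.766 (log2 difference -1.34 ± 0.28 (SE), adjusted p = 0.0117). The call of Socs1 was lost without DNCB replicate 1 (adjusted p 0.0511). The kinase Jak1 and the factor Stat3 had adjusted p-values of 0.0174 and 0.00254 but log2 differences of -0.92 ± 0.21 and -0.99 ± 0.14 (SE), which did not reach 1. The count of 2 was 5 without scMSC replicate 1.

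Myeloid receptors and their adaptors were lower in part, and the number of macrophage genes called depended on the fit. Of 17 Toll-like receptors and partners, 5 were called lower and 0 higher (Cd14, Tlr1, Tlr2, Tlr6 and Tlr13). Cd14, the co-receptor that presents lipopolysaccharide to Tlr4, was at 216, 217 and 124 FPKM in DNCB skin and 6.46, 5.83 and 3.61 in scMSC skin (log2 difference -5.1 ± 0.61 (SE), adjusted p = 0.0018). Tlr2, which senses bacterial lipoproteins, was at 11.4, 10.1 and 9.11 FPKM against 1.62, 1.23 and 0.989 (log2 difference -2.97 ± 0.28 (SE), adjusted p = 0.000773). Its partner Tlr1 was at 5.8, 6.13 and 5.08 against 0.472, 0.245 and 0.372 (log2 difference -3.94 ± 0.53 (SE), adjusted p = 0.0022). The groups did not overlap for these 3 genes, nor for 11 of the 17 tested, against 33.1% of all genes. Of 15 Fc receptors and signalling adaptors 8 were called lower and 0 higher, among them the Src-family kinase Fgr at 4.5, 3.81 and 4.82 FPKM against 0.32, 0.475 and 0.11 (log2 difference -3.8 ± 0.61 (SE), adjusted p = 0.00355). The Fc receptor γ chain Fcer1g was at 44.3, 38.6 and 40.1 against 9.14, 4.21 and 5.49 (log2 difference -2.69 ± 0.53 (SE), adjusted p = 0.00847). Of 19 macrophage and monocyte genes 5 were called lower and 0 higher, with a median log2 difference of -1.68. The inducible nitric oxide synthase Nos2 was at 4.9, 2.28 and 2.92 FPKM against 0.0615, 0.0728 and 0.0688 (log2 difference -5.56 ± 0.94 (SE), adjusted p = 0.00458). The arginase Arg1 was at 39.1, 41.1 and 26.5 against 13.9, 19.6 and 14.6 (log2 difference -1.11 ± 0.21 (SE), adjusted p = 0.007). The lysosomal macrophage marker Cd68 was at 44.1, 43.6 and 50.2 FPKM against 21, 9.55 and 12.2 and was not called (adjusted p = 0.0793). The call of Arg1 was lost without DNCB replicate 2 or scMSC replicate 1 (log2 difference -0.99 and -0.99), and that of Tlr13 without DNCB replicates 1, 2 or 3 or scMSC replicates 2 or 3 (adjusted p 0.0781 to 0.129). The macrophage count of 5 was 11 with DESeq2 and 14 with the 6 libraries fitted alone, and 3 without DNCB replicates 1 or 3 or scMSC replicates 2 or 3 and 2 without DNCB replicate 2. The Fc receptor count of 8 was 12 at the most with other settings, and it was 5 without DNCB replicates 1 or 3 and 4 without DNCB replicate 2 or scMSC replicates 2 or 3.

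Other immune lists gave fewer calls. The shares called in the mast cell list (9.09%), the Langerhans and dendritic cell list (6.67%) and the interferon list (10.5%) were near the 8.5% of all genes. Of 14 T cell genes, 2 were called lower (Cd4 and Icos) and 1 higher (Gata3), and the T cell receptor subunit Cd3e was at 0.111, 0.167 and 0.291 FPKM in DNCB skin and 0.346, 0.0584 and 0.106 in scMSC skin (adjusted p = 0.933). Gata3 is also a follicle and keratinocyte factor, so it does not mark T cells alone here, and the count of lower T cell genes was 1 without DNCB replicate 1 or scMSC replicate 2 and 0 without DNCB replicates 2 or 3 or scMSC replicate 3. It was 0 with genes of at least 1 FPKM only or with the 6 libraries fitted alone, 4 with DESeq2 and 1 with limma on log2(FPKM + 1). Of 11 mast cell genes 1 was called, Hdc, the enzyme that makes histamine, which was at 19.6, 20.3 and 12.5 FPKM against 2.71, 1.58 and 0.619 (log2 difference -3.4 ± 0.59 (SE), adjusted p = 0.00498). Hdc has also been reported in keratinocytes of patients with atopic dermatitis, so it does not mark mast cells alone. The mast cell proteases were not called: Cpa3 was at 13.3, 13.8 and 14.9 FPKM against 15.7, 6.0 and 6.35 and Mcpt4 at 28.3, 33.9 and 27.7 against 35.6, 15.8 and 16.9 (adjusted p = 0.646 and 0.746), with scMSC replicate 1 higher than the other 2 scMSC libraries for both. The mast cell list had 2 lower calls without scMSC replicate 1 and with the 6 libraries fitted alone, and 1 higher call without scMSC replicates 1 or 2. Of 15 genes of Langerhans and dendritic cells 1 was called, the Langerhans cell lectin Cd207, which was higher at 1.18, 2.12 and 1.58 FPKM in DNCB skin and 8.0, 3.44 and 2.24 in scMSC skin (log2 difference 1.49 ± 0.4 (SE), adjusted p = 0.0342). Its call was lost without DNCB replicates 1, 2 or 3 or scMSC replicates 1 or 2 (adjusted p 0.0535 to 0.124). All 19 interferon-stimulated genes had negative log2 differences, with a median of -0.78. Of the 19, 2 were called lower, and Ifitm1 was at 37.8, 36.7 and 41.7 FPKM against 6.91, 5.86 and 2.99 (log2 difference -2.85 ± 0.3 (SE), adjusted p = 0.00126). The other was Ifitm3, whose call was lost without DNCB replicates 1, 2 or 3 or scMSC replicates 2 or 3 (adjusted p 0.0703 to 0.139), and the count of 2 was 1 without DNCB replicates 1, 2 or 3 or scMSC replicates 2 or 3 and 5 without scMSC replicate 1. It was 1 with no filter or with library size scaling and 4 with DESeq2.

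Transcripts of the epidermal stress programme were lower in scMSC skin. Of 23 stress keratins, small proline-rich (Sprr) and late cornified envelope 3 (Lce3) genes tested, 19 were called lower and 1 higher, with a median log2 difference of -4.16 and 13 to 17 lower calls when 1 library was left out. The keratins of hyperproliferating epidermis were among the most abundant transcripts of DNCB skin. Krt6b was at 2131, 2828 and 2272 FPKM in DNCB skin and 36.4, 54.3 and 31.6 in scMSC skin (log2 difference -5.85 ± 0.92 (SE), adjusted p = 0.00337). Krt16 was at 2041, 2625 and 2249 FPKM against 74.5, 167 and 50.9 (log2 difference -4.51 ± 0.88 (SE), adjusted p = 0.00806). Krt6a was at 2071, 2487 and 2258 against 205, 334 and 119.9 (log2 difference -3.33 ± 0.6 (SE), adjusted p = 0.00551), with control skin at 115, 69.5 and 75.7. Their relative Krt17, which follicles make as well, was at 836, 867 and 1483 FPKM against 590.4, 897 and 481 with overlapping libraries and was not called (adjusted p = 0.179). Sprr proteins are cross-linked into the cornified envelope of stressed epidermis. Sprr2b was at 69.7, 169.9 and 102 FPKM against 1.25, 1.51 and 1.59 (log2 difference -6.26 ± 0.44 (SE), adjusted p = 0.000129). Sprr2d was at 204, 329.9 and 271 against 10.4, 11.8 and 7.22 (log2 difference -4.74 ± 0.47 (SE), adjusted p = 0.00108). Sprr2e was at 33, 36.4 and 40.8 against 0, 0.216 and 0.291 (log2 difference -7.63 ± 1.2 (SE), adjusted p = 0.00334). In scMSC skin these 3 genes were also below every control library, which held 9.03, 11.8 and 22.2 FPKM of Sprr2b. Lce3a, of a family induced when the barrier is damaged, was at 9.62, 12.1 and 8.96 FPKM against 0.167, 0 and 0, a ratio of summed counts of 169 with an exact 95% counting interval of 46.4 to 1399, and its call was lost without scMSC replicates 2 or 3 (adjusted p 0.0562 to 0.0622). The call of Lce3c was lost without DNCB replicates 1, 2 or 3 or scMSC replicates 1, 2 or 3 (adjusted p 0.0533 to 0.0846). That of Lce3f was lost without DNCB replicates 1, 2 or 3 or scMSC replicates 2 or 3 (adjusted p 0.0511 to 0.0972). Lce3b, Lce3d and Lce3e also lost their calls without some single libraries. Sprr1a went the other way, at 342, 302 and 324 FPKM in DNCB skin and 568, 1584 and 614 in scMSC skin (log2 difference 1.57 ± 0.38 (SE), adjusted p = 0.0206), and was the 1 member called higher. That call was lost without DNCB replicates 1, 2 or 3 (adjusted p 0.0645 to 0.0757) and without scMSC replicate 2 (log2 difference 0.84). Members of the Sprr2 and Lce3 families are near-identical and can share reads, so the level of a single member is uncertain.

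Antimicrobial proteins were lower in part, with 1 exception. Of 16 tested, 7 were called lower and 1 higher. Lipocalin 2 (Lcn2), which withholds iron from bacteria, was at 25.9, 26.9 and 26.2 FPKM in DNCB skin and 2.53, 2.13 and 1.39 in scMSC skin (log2 difference -3.68 ± 0.28 (SE), adjusted p = 0.000241). The protease inhibitor Slpi was at 51.9, 42.8 and 52.3 against 2.81, 4.58 and 1.01 (log2 difference -4.08 ± 0.66 (SE), adjusted p = 0.00379). The granule protein Ngp was at 7.56, 4.52 and 2.51 FPKM against 0, 0.0763 and 0, a ratio of summed counts of 176 with an exact 95% counting interval of 48.3 to 1457. The exception was S100a7a, a calcium-binding protein related to psoriasin. It was at 4.28, 3.55 and 6.03 FPKM in DNCB skin and 31.8, 97.5 and 29.9 in scMSC skin (log2 difference 3.58 ± 0.51 (SE), adjusted p = 0.00239), and at 0.887, 1.26 and 1.05 in control skin. The count of lower calls was 11 with DESeq2, 4 without DNCB replicate 3 and 3 without scMSC replicate 2, and the higher calls were 2 without scMSC replicate 3.

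The sequences just upstream of some of these genes were read from RefSeq to place letters beside the levels. The windows are the 250 bases before the annotated start on GRCm38.p6, and a window was matched for 602 of the 840 genes called lower, 722 of the 1021 called higher and 13217 of all genes tested. The first set shows an inflammatory gene called lower, Cxcl2, with its κB motif in capitals, over the last 100 bases before the start.
Cxcl2 (chr5:90903799-90903898, plus strand): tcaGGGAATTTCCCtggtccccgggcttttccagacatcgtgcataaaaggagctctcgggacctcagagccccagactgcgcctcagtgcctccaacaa
The run of capitals in Cxcl2 holds 2 overlapping matches to the κB motif, which NF-κB dimers recognise. The window of Il1b, also called lower, held no match to the κB motif. On either strand, this motif was in 7.14% of the windows of genes called lower, 4.16% of those called higher and 4.47% of all genes tested. The STAT motif TTCNNNGAA was in 8.14%, 5.12% and 5.98%. The second set is the pair Sprr2d and Sprr2e over 250 bases, shown because the neighbouring genes fell together, with the AP-1 motif TGANTCA in capitals.
Sprr2d (chr3:92338890-92339139, plus strand): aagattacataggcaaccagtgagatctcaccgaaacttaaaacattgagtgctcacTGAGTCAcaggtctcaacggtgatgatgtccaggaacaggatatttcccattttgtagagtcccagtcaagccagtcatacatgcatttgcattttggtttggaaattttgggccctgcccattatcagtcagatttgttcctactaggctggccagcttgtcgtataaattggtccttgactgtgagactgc
Sprr2e (chr3:92351893-92352142, plus strand): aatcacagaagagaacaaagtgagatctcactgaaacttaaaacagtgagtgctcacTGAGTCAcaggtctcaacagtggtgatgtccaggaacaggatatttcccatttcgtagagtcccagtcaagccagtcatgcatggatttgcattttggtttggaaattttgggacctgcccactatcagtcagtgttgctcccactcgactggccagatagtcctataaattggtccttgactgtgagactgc
Both windows carry the AP-1 letters at the same distance from the start. That motif was in 8.64% of windows of genes called lower, 9.0% of those called higher and 5.21% of all windows. The CEBP motif TTGCNNAA was in 11.3%, 9.14% and 8.2% of the windows in the same order, and the TCF/LEF motif CTTTGA in 12.3%, 14% and 11.4%. A match gives letters only and not a bound site, and these shares are descriptions.

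Transcripts of the dermal matrix were lower in scMSC skin as well. Of 18 fibroblast and dermal collagen genes, 13 were called lower and 0 higher, with a median log2 difference of -1.82. Col1a1, the main fibrillar collagen chain of dermis, was at 710.3, 810.3 and 584 FPKM in DNCB skin and 201, 56.5 and 81.2 in scMSC skin (log2 difference -2.64 ± 0.63 (SE), adjusted p = 0.0203), with control skin at 58.2, 46.6 and 56.1. Col3a1 was at 754, 748 and 729 FPKM against 231, 74.3 and 85.5 (log2 difference -2.51 ± 0.63 (SE), adjusted p = 0.0259). Col5a1 was at 66.5, 79.4 and 60.8 against 19, 7.0 and 10.6 (log2 difference -2.49 ± 0.51 (SE), adjusted p = 0.0104). The groups did not overlap, and scMSC replicate 1 was the highest scMSC library for all 3 genes. The proteoglycans Dcn and Lum and the receptor Pdgfra, also fibroblast markers, were not called. The count of 13 depended on single libraries and was 6 without DNCB replicate 1, 5 without DNCB replicate 2, 7 without DNCB replicate 3 and 3 without scMSC replicates 2 or 3. The calls of Col1a1 and Col3a1 were lost without DNCB replicates 1 or 2 or scMSC replicates 2 or 3 (adjusted p 0.0518 to 0.0796) and without DNCB replicates 1, 2 or 3 or scMSC replicates 2 or 3 (adjusted p 0.0579 to 0.0996), respectively.

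Genes of wound matrix and of matrix turnover were lower too. Of 20 wound matrix and myofibroblast genes 11 were called lower and 1 higher, and of 22 matrix proteases and inhibitors 13 were called lower and 1 higher. Osteopontin (Spp1) was at 197, 143 and 119 FPKM in DNCB skin and 5.28, 6.8 and 1.14 in scMSC skin (log2 difference -5.07 ± 0.66 (SE), adjusted p = 0.00199). Tenascin C (Tnc) was at 58, 73.2 and 94.5 FPKM against 5.01, 5.19 and 2.9 (log2 difference -4.07 ± 0.45 (SE), adjusted p = 0.00147). Col12a1, a collagen of tissue under strain, was at 46.9, 47.7 and 39.9 against 4.74, 4.04 and 2.87 (log2 difference -3.5 ± 0.33 (SE), adjusted p = 0.000773). All 3 stayed above control skin, which held 1.15, 1.2 and 1.73 FPKM of Col12a1, in at least 1 scMSC library. The gelatinase Mmp9 was at 26.8, 19.4 and 39.6 FPKM against 0.776, 0.948 and 0.645 (log2 difference -5.14 ± 0.58 (SE), adjusted p = 0.00162). The collagenase Mmp13 was at 14.9, 9.67 and 15.6 against 0.293, 0.591 and 0.07 (log2 difference -5.33 ± 0.93 (SE), adjusted p = 0.00498). Timp1, an inhibitor of these proteases that inflammation induces, was at 52.7, 50.03 and 75.4 FPKM against 3.7, 1.86 and 1.08 (log2 difference -4.72 ± 0.66 (SE), adjusted p = 0.00239). Neither these proteases nor Timp1 overlapped between the groups, and 17 of the 22 genes in their list did not, against 33.1% of all genes. Timp3, the inhibitor bound to matrix, was higher at 18.4, 16.3 and 17.4 FPKM in DNCB skin and 45.3, 32.6 and 28.2 in scMSC skin (log2 difference 1.05 ± 0.23 (SE), adjusted p = 0.0148), and its call was lost without DNCB replicates 2 or 3 (adjusted p 0.0522 to 0.0604) and without scMSC replicate 1 (log2 difference 0.87). The wound matrix gene called higher was Ccn2, at 11.3, 8.58 and 11.3 FPKM against 43.8, 20.2 and 13.7 (log2 difference 1.33 ± 0.34 (SE), adjusted p = 0.0277), whose call was lost without DNCB replicates 1, 2 or 3 or scMSC replicates 1 or 2 (adjusted p 0.0516 to 0.104). The lower counts were 6 without scMSC replicate 2 and 7 without scMSC replicate 3 for wound matrix and 8 without scMSC replicate 2 for proteases. Of 13 endothelial genes 8 were called lower and 0 higher, led by the selectin Sele that captures leukocytes on inflamed vessels, at 3.16, 2.21 and 3.81 FPKM against 0.499, 0.405 and 0.406 (log2 difference -2.78 ± 0.58 (SE), adjusted p = 0.0113). The endothelial count was 4 without DNCB replicate 1, 5 without DNCB replicate 2, 3 without DNCB replicate 3 or scMSC replicate 3 and 2 without scMSC replicate 2, and 5 with limma on log2(FPKM + 1).

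**Figure D3:**
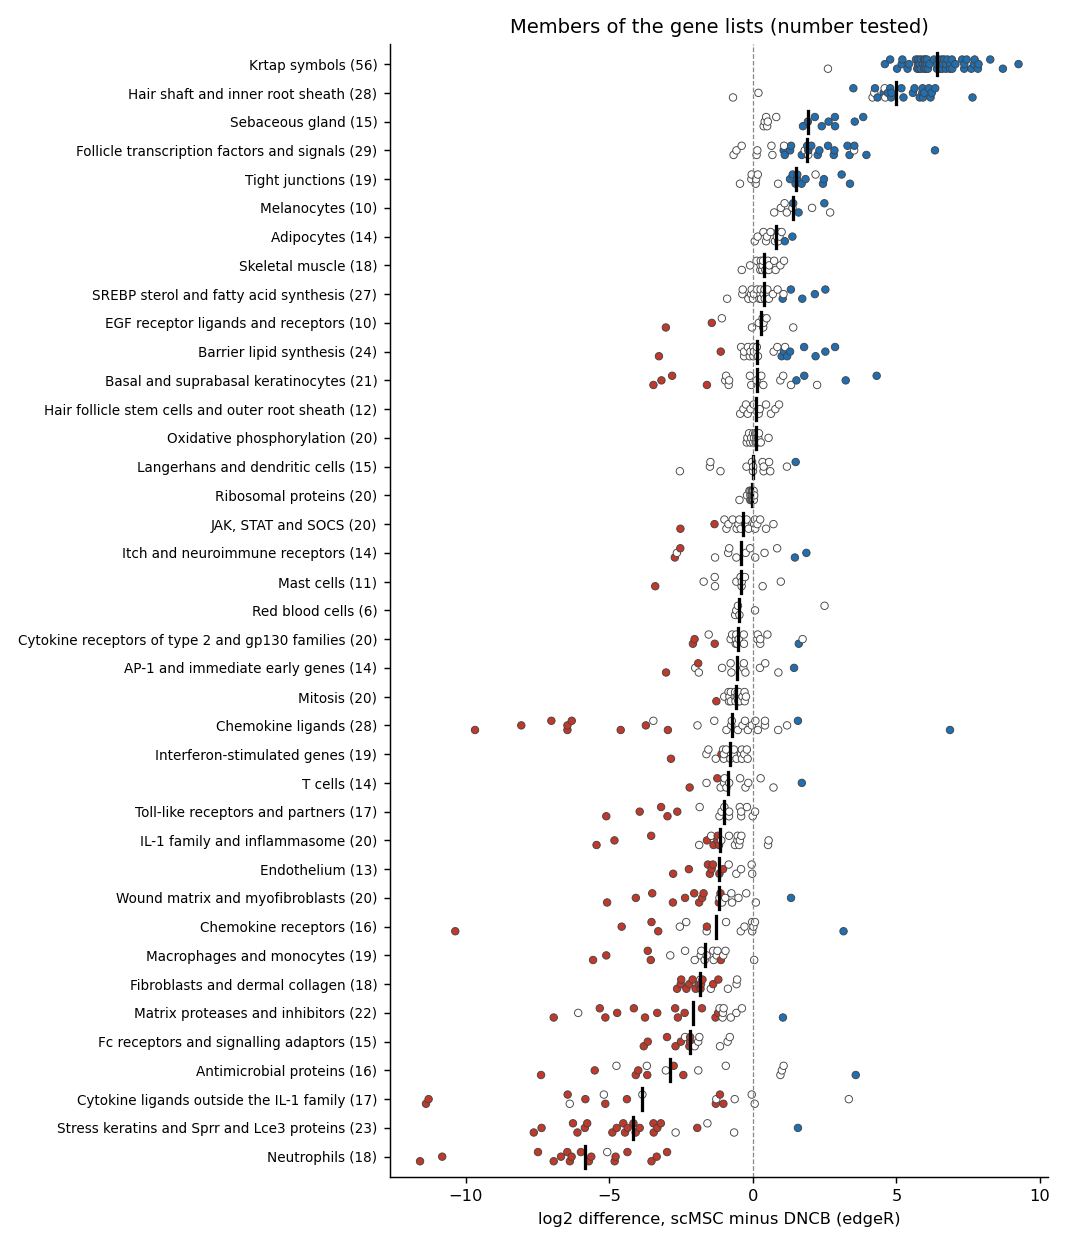
Log2 difference of scMSC minus DNCB skin for each tested member of 39 gene lists, ordered by the list median (black bars). Filled points were called (blue higher, red lower), open points were not, and the dashed line is the median of all 21890 genes tested.

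Hair shaft genes were higher in scMSC skin than in DNCB skin. Growing follicles build the shaft and its inner root sheath from hair keratins, trichohyalin and keratin-associated proteins. Of 28 hair shaft and inner root sheath genes, 22 were called higher and 0 lower, with a median log2 difference of 5.0, and 16 to 21 were called higher when 1 library was left out. Krt81, a hair keratin, was at 3.97, 1.56 and 8.49 FPKM in DNCB skin and 183, 594 and 231 in scMSC skin (log2 difference 6.23 ± 1.16 (SE), adjusted p = 0.00665). The inner root sheath keratin Krt72 was at 7.37, 3.11 and 14.3 FPKM against 378, 1211 and 339.6 (log2 difference 6.35 ± 1.21 (SE), adjusted p = 0.00733). Krt33a was at 3.39, 1.14 and 10.7 against 167, 518 and 228 (log2 difference 5.97 ± 0.98 (SE), adjusted p = 0.00391). Within the DNCB group replicate 3 was the highest for all 3 keratins and replicate 2 the lowest, and in the scMSC group replicate 2 was the highest. The lowest scMSC library was still more than 10 times the highest DNCB library. Crisp1, a secreted protein of the shaft list, was at 0.0742, 0.0647 and 0.033 FPKM against 8.44, 23.1 and 3.33, a ratio of summed counts of 199.9 with an exact 95% counting interval of 85.4 to 617. The inner root sheath keratins Krt25 and Krt71 were abundant without being called. Krt71 was at 157, 108 and 332 FPKM in DNCB skin and 2054, 5633 and 3096 in scMSC skin, and its adjusted p was 0.0963 with a log2 difference of 4.23 ± 1.5 (SE). Summed over the 28 genes, the shaft list reached 559, 417 and 1133 FPKM in DNCB skin, 8728, 25121 and 12316 in scMSC skin, 45.5, 411 and 40.9 in control skin and 7757, 3105 and 4519.8 in scivMSC skin. All 28 genes had a mean scMSC level more than 2-fold above the control mean. Control skin held little shaft RNA, and control replicate 2 stood apart from the other 2 control libraries.

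The keratin-associated proteins, which cross-link the shaft keratins, had the largest median difference of the lists described here. Genes with a Krtap symbol were grouped after their values had been seen: 56 were tested, 55 were called higher and 0 lower, and the median log2 difference was 6.42. They supplied 9 of the 10 genes with the largest rise among well-expressed genes, the other being Crisp1. Krtap19-4 was at 0.332, 0.148 and 0.149 FPKM in DNCB skin and 57.2, 252 and 87.3 in scMSC skin, a ratio of summed counts of 609 with an exact 95% counting interval of 237 to 2235. Krtap19-9a was at 0.516, 0.165 and 0.403 FPKM against 80.01, 328 and 88.9, a ratio of 417 with an interval of 163 to 1532. Krtap6-1, of the glycine and tyrosine rich class, was at 3.41, 0.538 and 6.33 FPKM against 299.9, 1178 and 227 (log2 difference 7.44 ± 1.15 (SE), adjusted p = 0.00306). The other 6 were Krtap19-2, Krtap19-3, Krtap19-5, Krtap19-9b, Krtap16-3 and Krtap6-3, with log2 differences of 7.61 to 8.27, and all lie in 1 cluster on chromosome 16. In each of them scMSC replicate 2 was the highest library. Krtap genes are short and near-identical within a class and can share reads, so the level of 1 member is uncertain. The 100 bases before the start are shown for 4 of them because these neighbouring genes moved together, with TATA-like letters in capitals: TATAAA in Krtap6-1 and TATATAAG in the Krtap19 genes.
Krtap6-1 (chr16:89031599-89031698, plus strand): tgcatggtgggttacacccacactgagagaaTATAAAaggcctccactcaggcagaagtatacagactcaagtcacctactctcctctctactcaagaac
Krtap19-2 (chr16:88874270-88874369, minus strand): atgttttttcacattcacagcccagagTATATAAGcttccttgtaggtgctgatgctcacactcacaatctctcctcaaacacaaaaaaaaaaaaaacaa
Krtap19-3 (chr16:88878039-88878138, minus strand): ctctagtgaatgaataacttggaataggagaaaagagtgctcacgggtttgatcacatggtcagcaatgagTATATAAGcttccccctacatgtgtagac
Krtap19-4 (chr16:88885090-88885189, minus strand): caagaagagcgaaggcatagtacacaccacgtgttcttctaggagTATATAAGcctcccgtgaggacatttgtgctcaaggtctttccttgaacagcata
Searched on both strands, TATAAA was in the 250-base windows of 40 of 49 Krtap genes with a window (81.6%), in 20.5% of windows of genes called higher, 15.8% of those called lower and 8.48% of all windows. TATATAAG, chosen after these sequences had been read, was in 14.3% of Krtap windows and 0.666% of all windows.

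Regulators of the follicle rose with the structural genes. Of 29 follicle transcription factors and signals 18 were called higher and 0 lower, with a median log2 difference of 1.89, and 12 to 17 were called higher without 1 library. Msx2, a homeobox factor of the hair matrix, was at 1.94, 1.41 and 3.7 FPKM in DNCB skin and 17, 42.8 and 46.4 in scMSC skin (log2 difference 3.95 ± 0.69 (SE), adjusted p = 0.00501). Lef1, which carries Wnt signals to DNA in the matrix, was at 0.505, 0.495 and 1.11 FPKM against 4.03, 7.97 and 11.9 (log2 difference 3.53 ± 0.58 (SE), adjusted p = 0.00406). Hoxc13, an activator of hair keratin genes, was at 6.15, 4.38 and 6.33 against 29.6, 67.8 and 63.4 (log2 difference 3.29 ± 0.43 (SE), adjusted p = 0.00199). Dlx3 was at 12.2, 10.8 and 18 FPKM against 79, 176 and 156 (log2 difference 3.37 ± 0.5 (SE), adjusted p = 0.00274). For these 4 factors the groups did not overlap, and scMSC replicate 1 was the lowest scMSC library. Fgf5, the growth factor that ends anagen, was at 0.0202, 0 and 0.147 FPKM in DNCB skin and 3.32, 8.61 and 1.74 in scMSC skin (log2 difference 6.34 ± 1.11 (SE), adjusted p = 0.00501). Foxn1, the factor mutated in nude mice, was at 4.81, 5.3 and 6.19 FPKM against 13.1, 28.8 and 16.7 (log2 difference 1.89 ± 0.31 (SE), adjusted p = 0.00397). The ligand Bmp2 was at 1.98, 0.887 and 1.91 against 8.65, 13.2 and 6.66 (log2 difference 2.62 ± 0.4 (SE), adjusted p = 0.00291). Sonic hedgehog (Shh), made in the growing bulb, was at 2.02, 2.51 and 4.16 FPKM against 5.82, 5.15 and 21.8 and was not called (adjusted p = 0.232). Of 12 genes of follicle stem cells and outer root sheath 0 were called by edgeR, DESeq2 or limma, while 3 had an unadjusted p under 0.05 in edgeR. Krt15 was at 242, 179 and 139 FPKM against 434, 317 and 199 (adjusted p = 0.203) and the stem cell receptor Lgr5 at 2.43, 1.95 and 1.61 against 2.56, 2.92 and 2.58 (adjusted p = 0.131). Of 20 genes of mitosis 1 was called (5.0%, against 8.5% of all genes). It was Cdc20, lower at 37.3, 30.9 and 32.2 FPKM against 11.3, 10.5 and 19.1 (log2 difference -1.27 ± 0.29 (SE), adjusted p = 0.0172). That call was lost without DNCB replicate 1 or scMSC replicates 1 or 2 (adjusted p 0.053 to 0.0626), and 2 mitosis genes were called lower without scMSC replicate 3 or with the 6 libraries fitted alone. All 20 mitosis genes had negative log2 differences, with a median of -0.58, and scMSC means more than 2-fold above the control mean. Pigment cell genes, which follow the growing bulb, gave 3 of 10 called higher, 0 lower and a median log2 difference of 1.39. The melanosome enzyme Tyrp1 was at 16.8, 14.6 and 21.3 FPKM against 38.6, 33 and 66.1 (log2 difference 1.4 ± 0.27 (SE), adjusted p = 0.00701). The pigment cell regulator Mitf was at 4.78, 4.24 and 5.9 against 11.1, 18.1 and 14.6 (log2 difference 1.59 ± 0.22 (SE), adjusted p = 0.00239). The third, Mlana, lost its call without DNCB replicates 1, 2 or 3 or scMSC replicates 2 or 3 (adjusted p 0.0845 to 0.143), and the count was 6 without scMSC replicate 1 and 5 with DESeq2.

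Sebaceous gland genes were higher in scMSC skin, and 13 of 15 had a mean scMSC level within 2-fold of control skin. Sebaceous glands sit on the follicle and secrete wax esters and triglycerides. Of 15 sebaceous genes 9 were called higher and 0 lower, with a median log2 difference of 1.92 and 7 to 9 calls without 1 library. The desaturase Scd3 was at 1.68, 0.784 and 1.09 FPKM in DNCB skin and 34.6, 8.01 and 8.57 in scMSC skin (log2 difference 3.84 ± 0.63 (SE), adjusted p = 0.00391), against 45.5, 34 and 66.3 in control skin. The wax synthase Awat1 was at 2.22, 0.975 and 0.641 FPKM against 23.7, 10.9 and 10.01 (log2 difference 3.55 ± 0.54 (SE), adjusted p = 0.00299). The elongase Elovl3 was at 14.4, 3.2 and 8.27 against 66.3, 58.6 and 59.9 (log2 difference 2.86 ± 0.54 (SE), adjusted p = 0.00675). The groups did not overlap for these genes, and scMSC replicate 1 was the highest for each. Lipid synthesis beyond the gland moved less evenly. Of 24 genes of barrier lipid synthesis 8 were called higher and 2 lower, and the higher count was 4 without DNCB replicates 1 or 3, 3 without DNCB replicate 2 or scMSC replicate 2 and 5 without scMSC replicate 1, and 5 with limma on log2(FPKM + 1). The elongase Elovl6 was at 11.3, 5.89 and 7.24 FPKM against 71.8, 34.4 and 33.3 (log2 difference 2.52 ± 0.41 (SE), adjusted p = 0.00387). The ceramide synthase Cers4 was at 2.88, 2.2 and 2.68 against 16.6, 8.88 and 9.48 (log2 difference 2.18 ± 0.42 (SE), adjusted p = 0.0075). The ceramide hydroxylase Degs2 was lower, at 8.98, 8.44 and 5.39 FPKM in DNCB skin and 1.09, 0.829 and 0.381 in scMSC skin (log2 difference -3.27 ± 0.67 (SE), adjusted p = 0.01). The other lower gene was Sgms2, with a log2 difference of -1.12, whose call was lost without DNCB replicate 1 (log2 difference -0.93). Of 27 genes of sterol and fatty acid synthesis under SREBP 5 were called higher and 0 lower, the count being 3 without DNCB replicate 2, and the fatty acid synthase Fasn was at 16.8, 18.8 and 19.5 FPKM against 25.8, 21.5 and 23.3 (adjusted p = 0.281). Of 14 adipocyte genes 2 were called higher, complement factor D (Cfd) at 71.6, 93.4 and 131 FPKM against 377, 223 and 160.2 (log2 difference 1.38 ± 0.34 (SE), adjusted p = 0.0251) and the lipase Lipe, and that count was 0 without DNCB replicates 1 or 2 or scMSC replicate 2, 4 without DNCB replicate 3 and 1 without scMSC replicate 1. It was 1 with limma on log2(FPKM + 1) and 0 with the 6 libraries fitted alone.

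**Figure D4:**
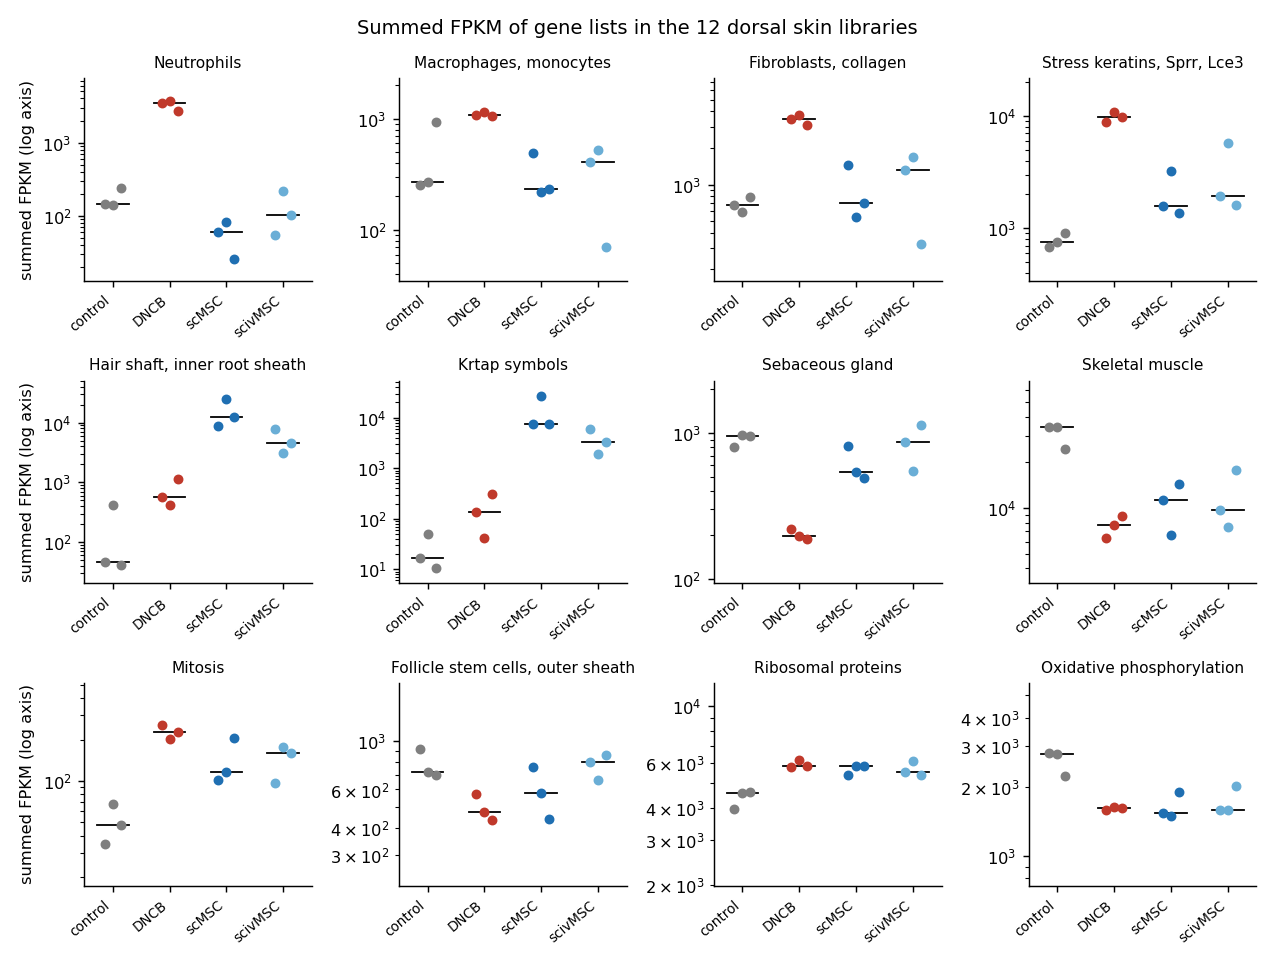
Summed FPKM of 12 gene lists in each of the 12 libraries, on log axes, with 1 point per library and a bar at the group median. Neutrophil, collagen and stress keratin sums are lower and hair shaft, Krtap and sebaceous sums higher in all scMSC than in all DNCB libraries, whereas the muscle and ribosomal sums overlap.

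Genes of the normal epidermal barrier were divided in direction. Of 21 basal and suprabasal keratinocyte genes 4 were called higher and 4 lower, with a median log2 difference of 0.13. Loricrin (Lor), the main protein of the cornified envelope, was at 291, 369.8 and 277 FPKM in DNCB skin and 1589.7, 1015 and 602 in scMSC skin (log2 difference 1.79 ± 0.35 (SE), adjusted p = 0.00841). The filaggrin relative Flg2 was at 1.74, 1.94 and 1.36 against 26.1, 16.7 and 3.98 (log2 difference 3.23 ± 0.69 (SE), adjusted p = 0.0125). Krt77, a keratin of normal suprabasal epidermis, was at 1.45, 0.162 and 0.636 FPKM against 32.4, 6.97 and 5.24 (log2 difference 4.31 ± 0.83 (SE), adjusted p = 0.00753), far below the 782, 694 and 1030.3 of control skin. Filaggrin itself, which binds keratin filaments and yields the moisturising factors of the stratum corneum, was not called: Flg was at 43.3, 43 and 32.9 FPKM in DNCB skin and 94.1, 76.7 and 56.7 in scMSC skin without overlap (log2 difference 0.96 ± 0.54 (SE), adjusted p = 0.311). The basal keratins fell, Krt14 from 6324, 7186 and 5530.0 FPKM to 962, 969.5 and 733 (log2 difference -2.81 ± 0.39 (SE), adjusted p = 0.00239) and Krt5 from 3259, 3014 and 2429.6 to 1100.3, 966 and 759 (log2 difference -1.6 ± 0.23 (SE), adjusted p = 0.00239). The suprabasal pair Krt1 and Krt10 was not called (adjusted p = 0.202 and 0.196). Klk14, a protease that sheds corneocytes, was lower at 7.61, 6.33 and 4.91 FPKM against 0.271, 0.723 and 0.652 (log2 difference -3.46 ± 0.59 (SE), adjusted p = 0.00457). The higher count was 2 without DNCB replicates 1 or 3, and the call of Flg2 was lost without DNCB replicates 1 or 3 (adjusted p 0.051 to 0.0543).

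Tight junction genes, which seal the granular layer, were higher in part. Of 19 tested, 11 were called higher and 0 lower, with a median log2 difference of 1.49, and 9 to 11 were called without 1 library. Cldn23 was at 0.272, 0.376 and 0.362 FPKM in DNCB skin and 4.45, 3.74 and 2.28 in scMSC skin (log2 difference 3.38 ± 0.31 (SE), adjusted p = 0.000718), with control skin at 5.27, 5.35 and 7.56. Cldn3 was at 0.641, 0.38 and 0.795 FPKM against 3.8, 6.84 and 4.52 (log2 difference 3.09 ± 0.49 (SE), adjusted p = 0.00337). Cldn4 was at 21.5, 20.6 and 26.1 against 82.7, 168 and 109 (log2 difference 2.44 ± 0.32 (SE), adjusted p = 0.00199). Occludin (Ocln) was at 2.66, 1.05 and 1.56 against 4.93, 6.95 and 6.43 (log2 difference 1.83 ± 0.35 (SE), adjusted p = 0.00733). None of the 4 overlapped between the groups, and 15 of the 19 genes tested did not, against 33.1% of all genes. Summed over the list, levels were 162 to 208 FPKM in control skin, 156 to 182 in DNCB skin and 300 to 434 in scMSC skin. Against the control mean, the mean scMSC level was more than 2-fold above for 6 of the 19 genes. It was within 2-fold for 13 and more than 2-fold below for 0. The list was matched through symbols, and the list member Cldn25 was read from the row of Cldnd1, which was not called. Cldn25 itself was thus not measured.

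Genes of itch and of growth signalling moved singly. Of 14 itch and neuroimmune genes 2 were called lower and 2 higher, and the lower count was 1 with genes of at least 1 FPKM only and 4 with DESeq2 or with the 6 libraries fitted alone. The histamine receptor Hrh2 was among the lower genes, at 0.402, 0.35 and 0.285 FPKM against 0.0694, 0.0233 and 0.0828 (log2 difference -2.53 ± 0.56 (SE), adjusted p = 0.0149), and its call was lost without DNCB replicate 1 (adjusted p 0.0502). The protease-activated receptor F2rl1 was higher, at 4.97, 3.13 and 4.87 FPKM against 13.9, 20.8 and 11.2 (log2 difference 1.86 ± 0.29 (SE), adjusted p = 0.0031). The warmth-sensing channel Trpv3 was also higher, at 5.49, 5.87 and 6.2 against 12.3, 24.3 and 10.3 (log2 difference 1.46 ± 0.31 (SE), adjusted p = 0.0119), and its call was lost without DNCB replicate 1 (adjusted p 0.0504) and without scMSC replicate 2 (log2 difference 0.91). Of 10 EGF receptor ligands and receptors 2 were called lower, Epgn at 46.8, 18.7 and 40.3 FPKM against 3.21, 5.75 and 3.59 (log2 difference -3.03 ± 0.66 (SE), adjusted p = 0.0135). Hbegf was at 8.64, 4.25 and 7.12 against 2.27, 2.45 and 2.54 (log2 difference -1.43 ± 0.33 (SE), adjusted p = 0.0162). The first lost its call without scMSC replicate 3 (adjusted p 0.0523) and the second without DNCB replicates 1 or 3 or scMSC replicate 2 (adjusted p 0.0503 to 0.066). Of 14 AP-1 and immediate early genes Fosl1 and Ier3 were called lower and Egr3 higher. Ier3 was at 177, 109.6 and 106 FPKM against 29.8, 46.1 and 25.9 (log2 difference -1.9 ± 0.3 (SE), adjusted p = 0.00355). Fosl1 was at 5.18, 2.24 and 2.95 against 0.171, 0.716 and 0.329 (log2 difference -3.02 ± 0.68 (SE), adjusted p = 0.0157), and its call was lost without DNCB replicate 1 or scMSC replicate 3 (adjusted p 0.0578 to 0.0602). Egr3 was at 12.7, 11.4 and 10.9 against 22.7, 29.97 and 40.1 (log2 difference 1.43 ± 0.24 (SE), adjusted p = 0.0045).

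Several further genes headed the ranking by size or by p-value. Adh6a, an alcohol dehydrogenase at chr3:138313286-138331134 (GRCm38), had the smallest p-value of all genes tested. It was at 0.477, 0.368 and 0.394 FPKM in DNCB skin, 10.6, 7.68 and 7.69 in scMSC skin and 23.6, 26.6 and 33.8 in control skin (log2 difference 4.39 ± 0.23 (SE), adjusted p = 2.48e-05). Vangl2, a planar polarity protein that orients follicles, was at 3.53, 2.49 and 2.85 FPKM against 10.5, 14.3 and 15.7 (log2 difference 2.22 ± 0.2 (SE), adjusted p = 0.000718). Gata3, a factor of the inner root sheath and of epidermal differentiation, was at 9.44, 11.3 and 9.81 against 26.6, 35.4 and 35.6 (log2 difference 1.7 ± 0.18 (SE), adjusted p = 0.00132). Id4, Dapl1, Hsbp1l1, Krt23 and Stra6, the receptor for retinol-binding protein, were the other genes with the smallest p-values among those called higher, at log2 differences of 2.03 to 3.90. On the lower side, the itaconate-making enzyme Acod1 of activated myeloid cells was at 55.3, 53.9 and 31.6 FPKM in DNCB skin and 0.411, 0.245 and 0.0358 in scMSC skin (log2 difference -7.63 ± 1.41 (SE), adjusted p = 0.00632). Srgn, the proteoglycan that packs leukocyte granules, was at 135, 132 and 81.7 FPKM against 9.46, 7.64 and 5.15 (log2 difference -3.95 ± 0.36 (SE), adjusted p = 0.000718). Hcar2, a receptor for hydroxybutyrate, was at 118, 91.3 and 80.7 against 14.2, 12.7 and 9.03 (log2 difference -2.99 ± 0.23 (SE), adjusted p = 0.000241). Mrgpra2a, a Mas-related receptor, and the serpin Serpinb3d were at 7.61, 6.59 and 5.11 FPKM and 6.18, 7.65 and 5.47 FPKM in DNCB skin and at 0 in all scMSC libraries, at least 53.1-fold and 52.1-fold lower. The near-identical Mrgpra2b, which can share reads with Mrgpra2a, was at 9.16, 11 and 6.98 FPKM against 0.172, 0 and 0 (log2 difference -7.27 ± 1.34 (SE), adjusted p = 0.0156). Stfa2l1, a stefin-like protease inhibitor with close relatives, was at 99, 92.5 and 86 FPKM against 0, 1.23 and 0.226 (log2 difference -7.48 ± 1.65 (SE), adjusted p = 0.0141). Reg1, a secreted lectin of regenerating tissue, was at 9.59, 7.1 and 19.9 FPKM against 0, 0.0516 and 0, a ratio of summed counts of 664 with an exact 95% counting interval of 119 to 26263. The calls of Mrgpra2b, Stfa2l1 and Reg1 were lost without DNCB replicate 2 (adjusted p 0.0539), without scMSC replicate 3 (adjusted p 0.054) and without scMSC replicates 2 or 3 (adjusted p 0.0549 to 0.0583), respectively.

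The pseudogene Usf2-ps1 and the gene Ccdc50 differed from the other genes of this ranking in their control levels. Usf2-ps1 was at 8.12, 14 and 12.2 FPKM in DNCB skin, 12.6, 4.83 and 14.7 in control skin and 0 in all scMSC libraries, at least 23.8-fold lower, and 1 scivMSC library was at 0 too. Its call was lost without scMSC replicate 2 (adjusted p 0.0518), and a pseudogene can share reads with its parent gene. Ccdc50, which encodes a coiled-coil effector of EGF signalling, lies at chr16:27388869-27452218 (GRCm38). It was at 9.24, 8.84 and 9.43 FPKM in DNCB skin and 7.13, 9.63 and 10.5 in control skin but 1.34, 1.11 and 1.61 in scMSC skin (log2 difference -2.74 ± 0.19 (SE), adjusted p = 0.000129), so the scMSC libraries lay below all libraries of both groups.

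The remaining lists gave few or no calls. Of 18 skeletal muscle genes 0 were called by edgeR and by limma, 1 was called by DESeq2, and 1 had an unadjusted p under 0.05 in edgeR. Their sum was 6385 to 8870.2 FPKM in DNCB skin and 6676 to 14476 in scMSC skin, both below the 24441 to 34458 of control skin. Of 20 oxidative phosphorylation genes and of 20 ribosomal protein genes 0 each were called by edgeR, DESeq2 or limma and 1 each had an unadjusted p under 0.05 in edgeR, with median log2 differences of 0.11 and -0.02. Of 6 red blood cell genes 0 were called by edgeR, 1 by DESeq2 and 1 by limma on log2(FPKM + 0.1), and 1 had an unadjusted p under 0.05 in edgeR. Sums of the lists of the other cell types differed between the groups beside the results above: macrophage genes were at 1062 to 1153 FPKM in DNCB skin and 219 to 489 in scMSC skin, fibroblast and collagen genes at 3089.5 to 3743 and 543 to 1449, and sebaceous genes at 188 to 220.4 and 494 to 816. Their part in the level of any single gene was not tested. The p-values rest on the spread between mice within all 4 groups, 3 per group, because the 12 libraries were fitted in 1 model. With 3 against 3, a single-gene exact permutation test could not go below 0.10.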

How the data were processed

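RNA was extracted from dorsal skin with Trizol and sequenced as bulk libraries, 3 per group and 12 in all. Per the file headers, the authors deposited for each gene and library an estimated count and an FPKM value, fragments scaled by transcript length and library size. The submitters' processing notes name Bowtie 0.12.2, HISAT2 2.0 and StringTie 1.3.0. The build they name conflicts with the coordinates in the table, which match GRCm38, so coordinates are given on GRCm38. Of low estimated counts, 38.9% to 41.2% per library were multiples of 4, and 1 fragment was taken as 4 counts. That scale is an assumption on which the floors and counting intervals rest. The table lists mouse genes only, so transcripts of the injected human cells were not measured separately.

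Genes with a mean FPKM of at least 0.1 over the 12 libraries were tested. The counts of the 4 groups were fitted in 1 model with edgeR 4.0.16 (TMM scaling, quasi-likelihood F-test) in R 4.3.3, and p-values were adjusted by the Benjamini-Hochberg method over all genes tested. Calls needed an adjusted p under 0.05 and an absolute log2 difference over 1. The procedure was tested on simulated counts. Standard errors were derived from the F statistic. A group at 0 was set to a floor of 3 fragments per library (12 counts), and a group at 1 to 3 fragments was compared by the ratio of summed counts with an exact 95% interval, which covers counting error only. Promoter windows of 250 bases came from RefSeq (GRCm38.p6), matched by symbol, chromosome and strand.

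Groups and replicate numbers came from the sample titles. Genes were named by rules: per direction, the 10 largest differences and the 10 smallest p-values among called genes whose groups did not overlap and whose higher mean was at least 5 FPKM, up to 6 called members per gene list, and a few genes of interest to atopic dermatitis. Every other gene named was chosen after its values were seen, and so were the Krtap grouping and the TATATAAG motif. The gene lists and members as a whole were chosen with earlier results of these data known, and some were made for an earlier analysis of the same libraries. Alternatives were other filters, scalings, tools and thresholds, a replicate block, and leaving out each library. A few genes of the lists and rankings are not reported here.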

Additional observations from a re-analysis of the deposited data

Results flagged for a closer look

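Ccdc50, which encodes a coiled-coil protein of EGF signalling, was the 1 gene of 21890 (0.00457%) called between the 2 routes of MSC delivery in the same edgeR model. It was at 1.34, 1.11 and 1.61 FPKM in scMSC skin and 10.4, 10.2 and 6.55 in scivMSC skin, with no overlap. The log2 difference of scMSC minus scivMSC was -2.72 ± 0.19 (SE), with an adjusted p of 0.000511. DNCB skin (8.84 to 9.43 FPKM) and control skin (7.13 to 10.5 FPKM) lay near scivMSC skin, so the scMSC libraries alone were low.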

How the results depend on the processing

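The 1861 calls were recomputed with other settings, and all kept their direction wherever they were tested. The total lay between 1341 and 2499 over the other filters, scalings and tools, and an adjusted p alone, with no limit on the fold, gave 2786. The fit with the replicate number as a block gave 1566 calls, of which 1528 were among the 1861. Deviations of same-numbered DNCB and scMSC libraries correlated at -0.0144, -0.041 and 0.000974. These few pairs cannot show whether same-numbered libraries shared a batch or an order of handling. With the block the lower count was 3 of 19 for macrophages, 5 of 15 for Fc receptors, 5 of 17 for cytokine ligands and 3 of 16 for chemokine receptors. limma on log2(FPKM + 1) called 665 genes higher, and an adjusted p alone called 1264 lower. Leaving out 1 library gave 1222 to 2008 calls, 686 to 997 higher and 533 to 1011 lower. The lower calls numbered 545 without DNCB replicate 2, 558 without DNCB replicate 1, 533 without scMSC replicate 2 and 1011 without scMSC replicate 1, against 840 with all libraries. The total was 1231 without DNCB replicate 2 and 1222 without scMSC replicate 2. Egr1, which was not called with all libraries (log2 difference -0.31, adjusted p = 0.752), ranged from -0.66 without DNCB replicate 2 to 0.74 without DNCB replicate 1 (adjusted p = 0.0402). Single higher calls in the chemokine receptor, cytokine receptor, stress keratin, protease and wound matrix lists were lost with at least 1 other tool, filter or fit, and without 1 library the Langerhans and SREBP lists gained 1 lower call each and the EGF receptor list 1 higher call. The cause was not tested. If 1 fragment gives about 4 counts, as was assumed, genes near the floor of 3 fragments give only coarse levels.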
